A study of Mus musculus with 3 samples.

Results

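Notch signaling genes were followed across the cell classes of the mouse larynx. The 10 genes were the receptors *Notch1*, *Notch2*, *Notch3* and *Notch4*, the ligands *Jag1*, *Jag2*, *Dll1* and *Dll4*, and the target genes *Hes1* and *Hey1*, chosen by name from all genes of the count tables. Single-cell RNA sequencing (scRNA-seq) had been run on 3 libraries of sorted *tdTomato*-positive cells, each from a pool of 10 larynges (5 from males and 5 from females). All mice carried *Lrig1CreERT2/+* and a *ROSA26* *CAG-LSL-tdTomato/+* reporter, so that Cre was driven by the *Lrig1* locus and red cells are those that recombined after tamoxifen, and tissue was taken 24 h after recombination. Age was not given in the sources used here. All 3 libraries belong to the same group, so every comparison is between cell classes or states within these pools.

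The Notch pathway works between touching cells. A Jagged or Delta-like ligand on a sending cell binds a Notch receptor on its neighbour, the receptor is cut by an ADAM protease and then by γ-secretase, and its inner part enters the nucleus with RBPJ and Mastermind-like coactivators to switch on targets such as the Hes and Hey repressors. In airway epithelium the pathway is known for steering basal cells toward secretory rather than ciliated fates, in stratified epithelium for the step from basal to suprabasal cells, in vessels for arterial and mural identity, and in muscle for keeping satellite cells quiescent.

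After filters on genes, UMIs (unique molecular identifiers, each counting 1 captured transcript) and mitochondrial share, and after removal of predicted doublets, 13222, 7201 and 24119 cells were kept in libraries 1, 2 and 3. Their medians were 10492.5, 14026 and 10096 UMIs per cell, and pairs of libraries shared 46 to 165 barcodes. Cells were placed in 14 classes by minimum UMI counts of marker genes, none of them among the 10, and 26052 of 44542 cells (58.5%) fell into these classes. Basal cells with an *Nkx2-1* UMI and none of *Tmprss11a* were called airway basal, the reverse squamous basal, and the 7629 basal cells with both or neither entered no comparison. Cells past both the basal and the secretory gate, or both the basal and the squamous gate, were kept as classes of their own. Of 32 pairs of a class and a marker that no gate used, 32 lay above the median of the other classes and 25 above every other class. The rest were *Sprr3* in suprabasal squamous cells, and *Krt5*, *Krt14* and *Krt15* in airway basal and in squamous basal cells. *Krt5* was 909 CPM in airway and 1370 CPM in squamous basal cells, against 2563 CPM in the basal and squamous class. In this check of markers the satellite classes were not set against each other, nor were airway and squamous basal cells. The secretory class had no such pair, because its markers *Scgb1a1*, *Scgb3a1* and *Scgb3a2* had been taken into the gates, as had the squamous marker *Krt13*. In the suprabasal squamous class *Krtdap*, a gene of differentiating squamous cells that no gate used, was higher than in every other class (103 CPM). *Krt15*, a keratin of basal cells, was also highest there, at 10186 CPM against 5076 in squamous basal cells, and *Sprr3*, a cornification gene, was near 0 at 0.116 CPM. Both go against the name, so the class is called suprabasal by its gate only. Before removal, 8.82% to 31.8% of the basal and secretory class had been called doublets, against 4.56% to 9.28% of airway basal cells. In the basal and squamous class 2.22% to 16.2% had been called, against 2.92% to 10.3% of squamous basal cells. Median depth was 18755.5 to 25385 UMIs in the basal and secretory class, 12790 to 17297 in airway basal and 15936 to 22289 in secretory cells. It was 25490.5 to 29128 in the basal and squamous class, 13707 to 19264.5 in squamous basal and 20580 to 26185 in suprabasal squamous cells. The part of depth and of remaining doublets in the values of both mixed classes was not tested.

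Levels are in CPM, the standard depth-scaled unit: a gene's UMIs in a class and library as a share of all UMIs there, with every class and library scaled to the same total. They compare the same gene between classes and are not divided by gene length. A class entered with a library only where it had at least 20 cells there, so neuroendocrine cells have values in libraries 1 and 2 and mural cells in libraries 1 and 3. Errors are standard deviations over libraries (n = 3, or n = 2 for these classes). Sums per class entered the quasi-likelihood test of edgeR, which is two-sided here and has library as a block. Its p-values were adjusted after Benjamini-Hochberg over all genes tested, with a threshold of 0.05. Positions are on GRCm39, and all 10 genes are annotated as protein coding.

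**Figure D1:**
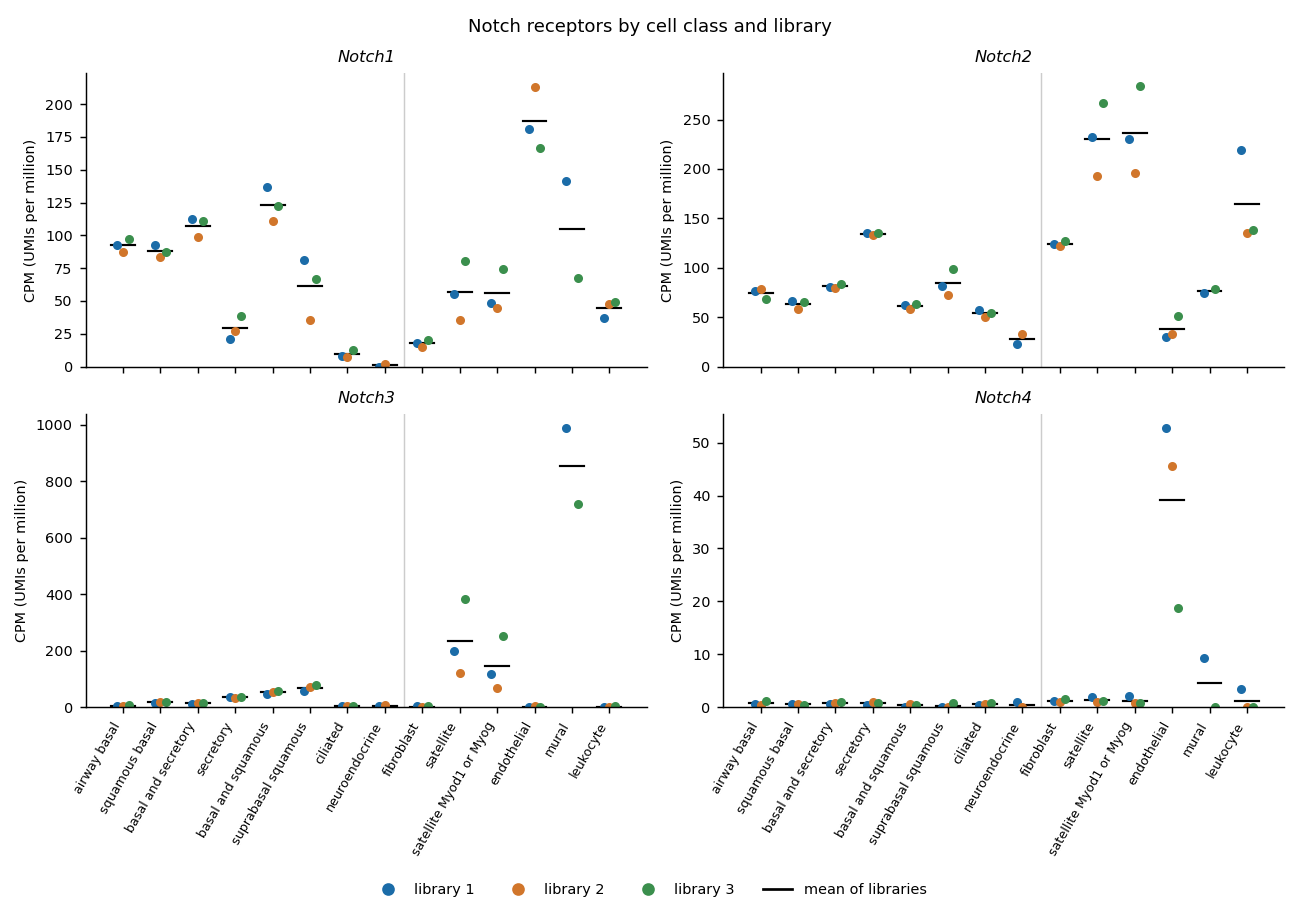
Levels of the 4 Notch receptors in CPM (y axis) in 14 cell classes (x axis), with 1 point per library and a bar at the mean. Epithelial classes stand left of the grey line. *Notch3* was at 989 and 718 CPM in mural cells, *Notch4* peaked in endothelial cells, and *Notch2* was found in every class.

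*Notch3* differed most between classes among the receptors. *Notch3* (ENSMUSG00000038146, chromosome 17, 32339794 to 32385893, minus strand) encodes a receptor best known from vascular smooth muscle. In mural cells, the pericytes and smooth muscle cells of vessels, it stood at 989 and 718 CPM in libraries 1 and 3. In satellite cells without *Myod1* or *Myog* it was 199, 120.0 and 384 CPM in libraries 1, 2 and 3, and in satellite cells with either gene 118, 68.4 and 252 CPM. Both satellite classes were highest in library 3 and lowest in library 2, and they overlapped each other. Within the epithelium the order was suprabasal squamous (69.5 ± 11.5 CPM), basal and squamous (52.3 ± 3.92), secretory (34.3 ± 2.16), squamous basal (16.5 ± 2.15), basal and secretory (13.7 ± 0.831), neuroendocrine (4.91 ± 2.98) and airway basal cells (4.07 ± 2.03). Each of these did not overlap with the next, except that neuroendocrine and airway basal cells did. Ciliated cells, leukocytes, fibroblasts and endothelial cells averaged 1.24 to 2.76 CPM.

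At least 1 *Notch3* UMI was found in 92.1% ± 2.91 of mural cells and 1.72% ± 0.827 of fibroblasts, at median depths of 7466 to 9325 and 9303 to 10835 UMIs per cell. Thinned to 5000 UMIs per cell, the shares were 91.6% ± 0.989 and 0.944% ± 0.590, with 27 of 111 mural cells and 636 of 4156 fibroblasts of all libraries left out as too shallow. In secretory and airway basal cells the thinned shares were 12.8% ± 4.42 and 1.54% ± 1.31, the latter near the share in fibroblasts.

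*Notch2* (ENSMUSG00000027878, chromosome 3, 97920800 to 98057677, plus strand), a broadly expressed receptor, was the only 1 of the 4 above 20 CPM in every class and library. It was highest in satellite cells, at 236 ± 44.5 CPM with and 231 ± 37.1 CPM without *Myod1* or *Myog*, followed by leukocytes (164 ± 47.5), secretory cells (134 ± 1.34) and fibroblasts (124 ± 2.81). The satellite classes and leukocytes overlapped, and secretory cells lay above fibroblasts in every library. Neuroendocrine cells were lowest at 22.5 and 33.3 CPM. The gene overlaps 2 predicted gene models on its own strand, so the assignment of reads in those stretches is uncertain.

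*Notch4* (ENSMUSG00000015468, chromosome 17, 34783220 to 34807477, plus strand), known as an endothelial receptor, was 52.8, 45.6 and 18.8 CPM in endothelial cells of libraries 1, 2 and 3, which held 501, 30 and 47 such cells. Its mean in every other class was at most 4.65 CPM, reached in mural cells through library 1 alone (9.30 and 0 CPM). *Notch1* (ENSMUSG00000026923, chromosome 2, 26347915 to 26406675, minus strand), the receptor deleted in other animals of the study, was also highest in endothelial cells (181, 213 and 167 CPM). It was 92.8, 87.3 and 97.0 CPM in airway basal and 92.5, 83.9 and 87.6 CPM in squamous basal cells and 21.2, 27.2 and 38.6 CPM in secretory cells, which lay below both. In neuroendocrine cells library 1 held no *Notch1* UMI among 1067904 UMIs, which allows up to 2.81 CPM by counting error alone, and library 2 had 1 UMI.

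As a share of the UMIs of all 4 receptors, the make-up changed with class. In airway and squamous basal cells *Notch1* made up 53.8% ± 2.28 and 52.2% ± 0.880, and *Notch2* 43.4% ± 3.46 and 37.6% ± 1.21. In secretory cells *Notch2* led with 67.8% ± 3.04, ahead of *Notch3* with 17.3% ± 1.11 and *Notch1* with 14.5% ± 3.68. Suprabasal squamous cells were the most even, with 39.2% ± 1.60 *Notch2*, 32.8% ± 7.34 *Notch3* and 27.9% ± 8.60 *Notch1*. *Notch3* took 82.3% ± 1.11 in mural cells and 42.5% ± 9.17 in satellite cells without *Myod1* or *Myog*, and *Notch1* took 70.3% ± 1.92 in endothelial cells. These are shares of 3′ UMIs and depend on how well each gene's 3′ end is captured.

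**Figure D2:**
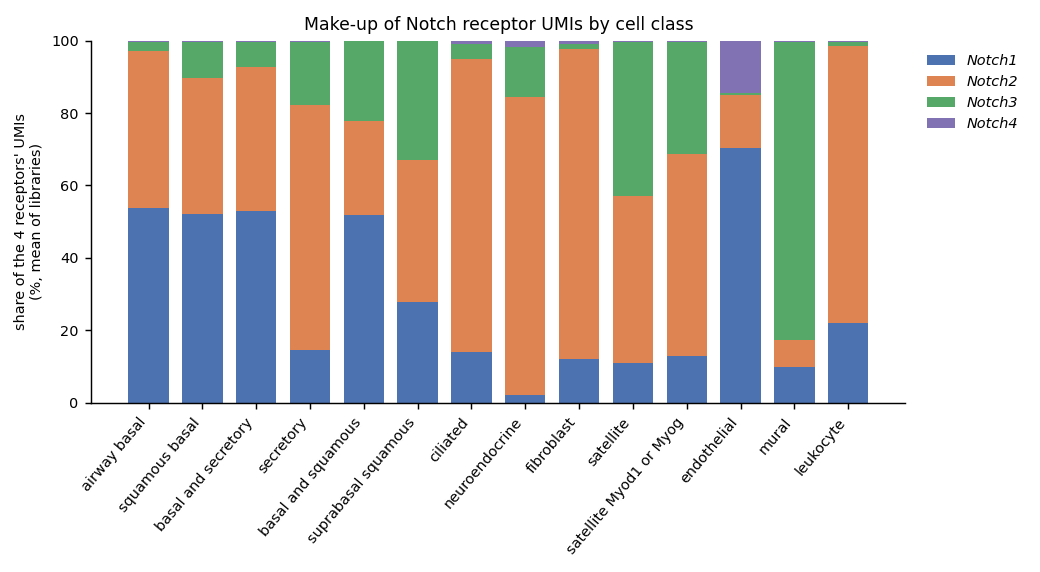
Share of the summed UMIs of the 4 Notch receptors taken by each (y axis, %, mean of libraries) in 14 cell classes (x axis). *Notch1* led in the 4 classes past the basal gate and in endothelial cells, *Notch3* in mural cells (82.3% ± 1.11), and *Notch2* had the highest mean share in the other classes plotted, with *Notch3* ahead of it in library 3 of satellite cells without *Myod1* or *Myog* (52.5% against 36.4%) and in library 2 of suprabasal squamous cells (40.4% against 39.9%).

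Of the ligands, *Jag2* and *Dll1* were high in basal epithelium and *Dll4* and *Jag1* peaked in vascular classes. *Jag2* (ENSMUSG00000002799, chromosome 12, 112871421 to 112893437, minus strand), a Jagged ligand, was 174, 159 and 168 CPM in squamous basal and 165, 145 and 171 CPM in airway basal cells, which overlapped. It was 113 ± 18.1 CPM in the basal and secretory and 92.3 ± 18.2 CPM in the basal and squamous class. In secretory cells it was 13.3, 14.7 and 20.6 CPM, in suprabasal squamous cells 12.7, 11.5 and 7.68 CPM and in ciliated cells 9.45, 8.28 and 6.76 CPM. Every library of these classes lay below every library of the 4 classes past the basal gate. Fibroblasts were lowest at 2.84 ± 0.527 CPM. Thinned to 5000 UMIs, 55.4% ± 1.03 of squamous basal cells and 1.34% ± 0.303 of fibroblasts held a *Jag2* UMI, against 84.1% ± 4.81 and 2.72% ± 0.790 at full depth.

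*Dll1* (ENSMUSG00000014773, chromosome 17, 15587276 to 15597134, minus strand), a Delta-like ligand, was like *Jag2* lower in secretory, suprabasal squamous and ciliated cells than in basal cells. Airway basal cells had 35.5, 31.7 and 35.8 CPM and squamous basal cells 33.6, 21.7 and 26.9 CPM, whereas secretory, suprabasal squamous and ciliated cells averaged 1.57, 0.785 and 0.534 CPM. Satellite cells, where *Jag2* averaged 5.73 and 5.11 CPM, had 27.8 ± 7.14 CPM of *Dll1* without and 38.0 ± 17.6 CPM with *Myod1* or *Myog*. Endothelial cells (34.1 ± 5.98 CPM) overlapped with airway basal, squamous basal and both satellite classes. Leukocytes held 1 *Dll1* UMI in all.

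*Dll4* (ENSMUSG00000027314, chromosome 2, 119156170 to 119166443, plus strand), a ligand of arterial and sprouting endothelium, was found almost entirely in endothelial and neuroendocrine cells. It stood at 109.8, 60.8 and 48.4 CPM in endothelial cells and at 5.62 and 14.0 CPM in neuroendocrine cells, a 7.43-fold difference of means without overlap. No other class averaged above 0.495 CPM, and no *Dll4* UMI was found in the basal and squamous class, satellite cells without *Myod1* or *Myog*, mural cells or leukocytes. *Jag1* (ENSMUSG00000027276, chromosome 2, 136923373 to 136958693, minus strand), the other Jagged ligand, was highest in mural cells (257 and 349.8 CPM), 3.72-fold above ciliated cells (81.5 ± 10.8 CPM). It was flat over the classes past the basal gate, at means of 67.3 to 70.8 CPM that all overlapped. Secretory cells had 30.2, 25.1 and 36.1 CPM and suprabasal squamous cells 56.6, 48.9 and 52.7 CPM, both below every one of those classes.

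**Figure D3:**
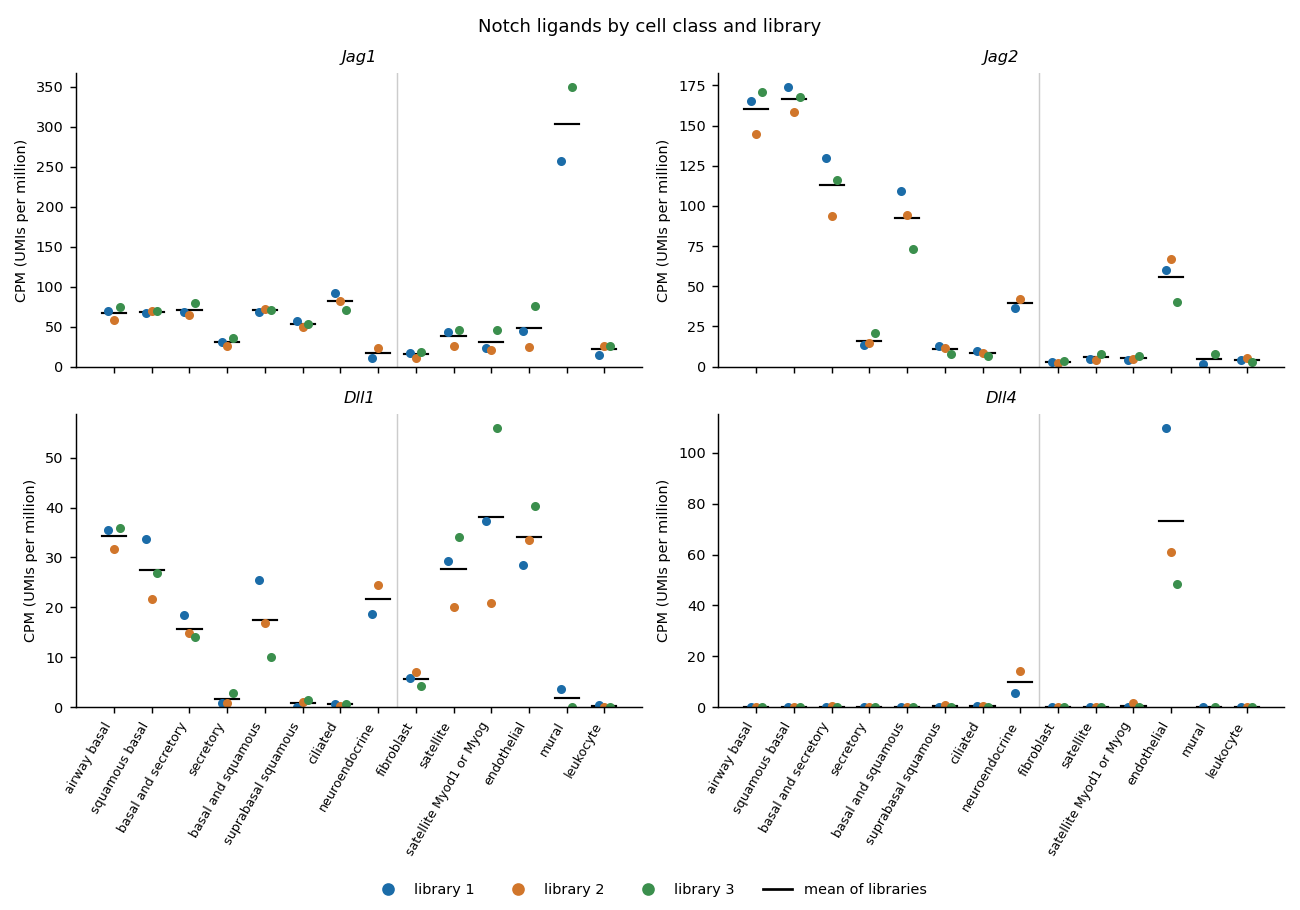
Levels of the 4 Notch ligands in CPM (y axis) in 14 cell classes (x axis), with 1 point per library and a bar at the mean. Epithelial classes stand left of the grey line. *Jag2* and *Dll1* were lower in secretory, suprabasal squamous and ciliated cells than in basal cells, *Jag1* peaked in mural cells and *Dll4* in endothelial cells.

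The targets did not share a pattern. *Hes1* (ENSMUSG00000022528, chromosome 16, 29882134 to 29886643, plus strand), a repressor switched on by Notch and by other signals, was highest in the basal and secretory class (419.8, 467 and 426 CPM), mural cells (463 and 361 CPM), secretory cells (366, 349.7 and 408 CPM) and suprabasal squamous cells (378, 419 and 251 CPM), each of which overlapped with the next. Airway basal cells had 265 ± 28.3 and squamous basal cells 214 ± 9.18 CPM. Leukocytes (24.2, 90.4 and 31.2 CPM) and fibroblasts (42.8 ± 3.53 CPM) overlapped, and neuroendocrine cells were lowest (19.7 and 21.1 CPM). *Hey1* (ENSMUSG00000040289, chromosome 3, 8726956 to 8732385, minus strand), a related repressor, was highest in satellite cells without *Myod1* or *Myog* (87.6, 58.2 and 135 CPM) and with them (63.2, 33.4 and 93.3 CPM). Secretory cells (31.9, 33.4 and 55.6 CPM) and endothelial cells (43.5, 33.5 and 26.9 CPM) followed and overlapped with each other and with the second of these. As for *Notch3*, library 3 was highest and library 2 lowest in both satellite classes. Leukocytes held 1 *Hey1* UMI in all.

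**Figure D4:**
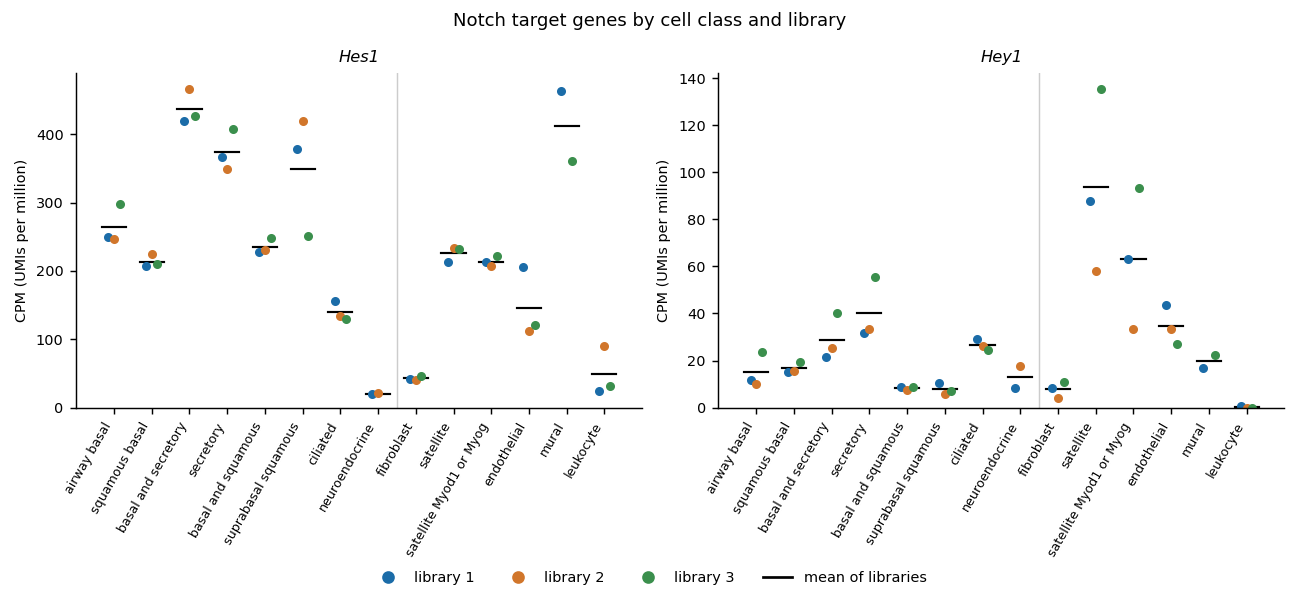
Levels of *Hes1* and *Hey1* in CPM (y axis) in 14 cell classes (x axis), with 1 point per library and a bar at the mean. *Hes1* was highest in the basal and secretory class (438 ± 25.6 CPM) and lowest in neuroendocrine cells, and *Hey1* was highest in satellite cells.

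Airway basal and squamous basal cells, named by *Nkx2-1* and *Tmprss11a* UMIs and not by their place in the larynx, differed in *Notch3*. It was lower in airway basal cells in 3 of 3 libraries, at 2.61, 3.21 and 6.38 CPM against 14.4, 18.6 and 16.5 CPM (log2 fold change -2.07, SE 0.286, adjusted p = 1.14e-06). None of the other 9 genes passed, with log2 fold changes of -0.21 for *Hey1* to 0.59 for *Dll4*. That is 1 of 10 genes lower and 0 higher, where 9.28% of 17848 genes were lower and 9.05% higher, so the count is near the background. Of 42 further pathway genes, 39 were tested, 3 were higher and 3 lower. *Nrarp*, a Notch target and feedback inhibitor, was the most lowered (-1.65, SE 0.262, adjusted p = 1.13e-05), then *Hes6* (-0.64, adjusted p = 0.0125), while *Dtx4* (0.71, adjusted p = 0.00762) and *Dtx3* (0.45, adjusted p = 0.00474), of the Deltex ubiquitin ligase family, were the most raised. In limma on log2 CPM, chosen after seeing the data, the *Notch3* difference was -2.08 with adjusted p = 0.185.

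In the class called suprabasal squamous by its gate, *Dll1* and *Jag2* were lower and *Notch3* higher than in squamous basal cells. *Dll1* was 0, 0.960 and 1.40 CPM in suprabasal against 33.6, 21.7 and 26.9 CPM in squamous basal cells (log2 fold change -4.67, SE 0.532, adjusted p = 2.06e-08). *Jag2* was at 0.0458 to 0.0731 times the basal level (-4.10, SE 0.212, adjusted p = 5.93e-16), and *Notch3* at 3.91 to 4.78 times it (2.03, SE 0.286, adjusted p = 1.10e-06). *Hes1* was higher (0.65, SE 0.194, adjusted p = 0.00880) and *Hey1* lower (-1.29, SE 0.350, adjusted p = 0.00437). With gates at 2 UMIs, where the squamous gate was lowered in proportion from 20 UMIs, *Hey1* was at -0.56 with adjusted p = 0.292. *Notch2* was higher (0.43, adjusted p = 0.0307) and *Notch1* lower (-0.57, adjusted p = 0.0303), and *Jag1* did not pass (-0.43, adjusted p = 0.0811). In all 3 genes were higher and 4 lower, where 9.51% of all genes were higher and 22.4% lower and the median over all genes was -0.40. The basal and squamous class lay between these classes on average for *Notch3*, *Jag2* and *Dll1*, but above both for *Notch1* (137, 111 and 122 CPM).

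Among the further pathway genes, 3 of 39 were higher and 13 lower in suprabasal squamous cells. *Nrarp* was the most raised (2.59, SE 0.260, adjusted p = 1.56e-09), with means of 6.14 CPM in squamous basal, 26.7 CPM in basal and squamous and 37.1 CPM in suprabasal cells, followed by *Dtx2* (0.81, adjusted p = 8.26e-04). *Lfng*, a Fringe glycosyltransferase that alters which ligands a receptor answers to, was the most lowered (-4.30, SE 0.542, adjusted p = 1.77e-07), then *Dtx3* (-2.58, adjusted p = 3.62e-10). The suprabasal squamous class held 39, 43 and 139 cells, and only the *Dll1* and *Jag2* calls held in every alternative. The *Notch1* call held in 2 of 12 alternatives, with *Notch2* in 7 of 12, *Hey1* in 9 of 12, *Hes1* in 10 of 12 and *Notch3* in 11 of 12. Without library 1 *Hes1* had adjusted p = 0.0515, without library 2 *Hey1* had 0.0655 and *Notch1* 0.755, and without library 3 *Notch2* had 0.258, *Hey1* 0.122 and *Notch1* 0.0598. Without the library block *Notch1* had 0.101 and *Notch2* 0.0710, and in limma *Notch3* had 0.0502, *Hes1* 0.0683, *Notch2* 0.129 and *Notch1* 0.295, which left 0 higher and 3 lower.

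Secretory cells differed from airway basal cells in 8 of the 10 genes, 4 higher and 4 lower, where 12.9% of all genes were higher and 18.7% lower. *Notch3* was 35.7, 31.8 and 35.3 CPM in secretory against 2.61, 3.21 and 6.38 CPM in airway basal cells (log2 fold change 3.33, SE 0.301, adjusted p = 1.00e-10). *Hey1* (1.66, SE 0.213, adjusted p = 1.48e-07), *Notch2* (1.09, SE 0.141, adjusted p = 1.52e-07) and *Hes1* (0.75, SE 0.189, adjusted p = 0.00235) were also higher. Among the ligands *Dll1* (-4.13, SE 0.324, adjusted p = 4.15e-12), *Jag2* (-3.06, SE 0.161, adjusted p = 5.72e-16) and *Jag1* (-0.89, SE 0.171, adjusted p = 1.00e-04) were lower, and so was *Notch1* (-1.45, SE 0.192, adjusted p = 2.44e-07). Each of the 8 moved the same way in 3 of 3 libraries. All but *Hes1*, which had adjusted p = 0.0526 in limma, passed in every alternative.

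In the pathway list 2 of 39 were higher and 7 lower in secretory than in airway basal cells. *Nrarp* (1.41, SE 0.324, adjusted p = 8.60e-04) and *Dtx4* (0.96, adjusted p = 5.11e-04) were higher, though *Nrarp* was low in both at means of 4.43 and 2.03 CPM. *Lfng* (-2.67, SE 0.307, adjusted p = 2.06e-08) and *Numbl* (-1.29, adjusted p = 8.19e-06), a relative of the Notch inhibitor Numb, were the most lowered. The basal and secretory class lay on average between airway basal and secretory cells for *Notch2*, *Notch3*, *Jag2*, *Dll1* and *Hey1*, but above both for *Hes1*, *Notch1* and *Jag1*.

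**Figure D5:**
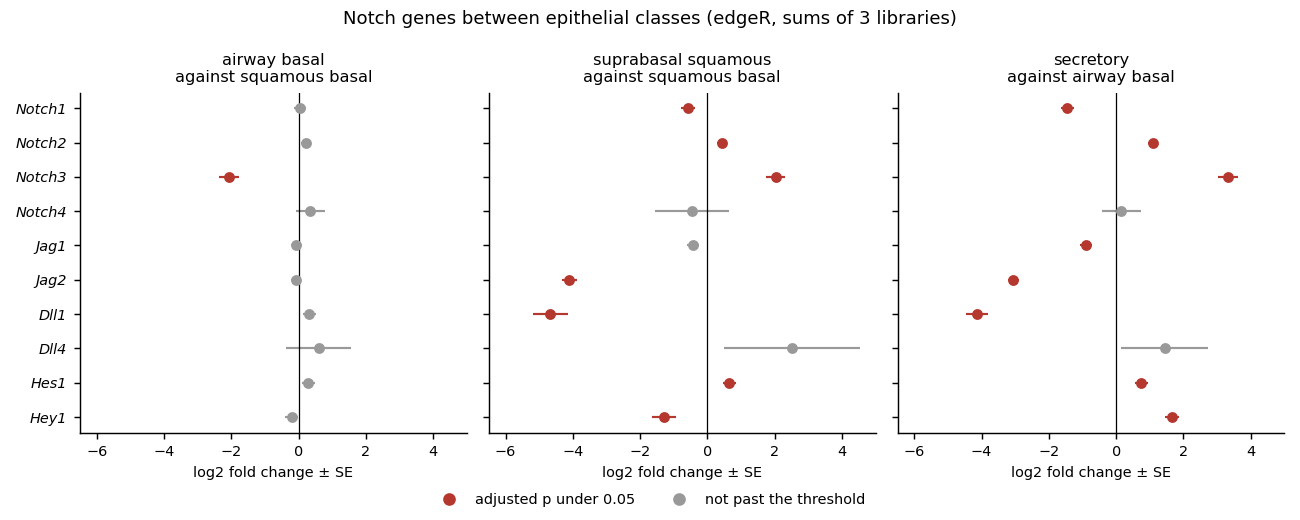
Log2 fold changes of the 10 Notch genes with standard errors in 3 comparisons between epithelial classes, with genes past the adjusted p threshold marked by colour. *Jag2* and *Dll1* were lower and *Notch3* was higher in suprabasal squamous than in squamous basal cells and in secretory than in airway basal cells.

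Ciliated and neuroendocrine cells were each compared with the mean of the other 7 epithelial classes. That mean is taken over log2 levels, so classes with low levels weigh on it, and a fall cannot be tested where a class in it holds no UMI, which among the 10 genes was so for *Dll4* alone. Such a class also lowers the mean, which favours a rise. In ciliated cells 2 genes were higher and 5 lower, where 32.1% of all genes were higher and 27.9% lower. *Jag1*, at 91.7, 82.6 and 70.1 CPM (0.92, SE 0.129, adjusted p = 1.45e-07), and *Hey1*, at 29.0, 26.4 and 24.7 CPM (0.97, SE 0.184, adjusted p = 2.43e-05), were higher, *Hey1* in 2 of 3 libraries against the arithmetic mean. *Jag2* (-2.62, SE 0.164, adjusted p = 7.55e-16), *Dll1* (-4.00, SE 0.520, adjusted p = 3.41e-08), *Notch3* (-2.56, SE 0.414, adjusted p = 2.07e-06), *Notch1* (-1.90, SE 0.566, adjusted p = 0.00411) and *Hes1* (-0.40, SE 0.157, adjusted p = 0.0280) were lower. The *Hes1* call held in 6 of 12 alternatives, with adjusted p = 0.233 without library 3, 0.107 with RLE size factors and 0.0853 in DESeq2, and the fall of *Notch1* could not be tested without library 2, where the mean held a class without a *Notch1* UMI. After thinning, 3 higher and 2 lower passed, where 8051 of 15747 genes passed in either direction. *Notch4*, with 8 UMIs in ciliated cells at full depth, was added (2.66, adjusted p = 0.0416), *Hes1* was lost (0.109), and the falls of *Notch1* (-1.22) and *Notch3* (-1.83) could not be tested. At full depth *Notch4* averaged 0.563 CPM in ciliated cells against an arithmetic mean of 0.556 CPM. Of the classes in the log2 mean, neuroendocrine and suprabasal squamous cells then held 1 and 2 UMIs of it. In the pathway list 10 of 39 genes were higher and 20 lower. The most raised were *Dtx1* (mean 22.0 CPM) and *Neurl1a* (40.9 CPM), ubiquitin ligases of the pathway, and the most lowered was *Neurl1b* (-2.88, adjusted p = 5.43e-05).

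Neuroendocrine cells, 48 and 23 in libraries 1 and 2, held Delta-like ligand RNA and little *Notch1* or *Hes1*. *Dll4*, with 14 UMIs in all, was at 5.62 and 14.0 CPM, against at most 0.960 CPM in any library of another epithelial class (adjusted p = 2.00e-06). In the log2 mean of that test 1 class, basal and squamous, held no *Dll4* UMI. *Dll1* was at 18.7 and 24.6 CPM (log2 fold change 1.39, SE 0.431, adjusted p = 0.00936). *Dll1* there averaged 21.6 CPM, below the means of airway basal (34.4 CPM) and squamous basal cells (27.4 CPM). It was 1.14 to 1.97 times the arithmetic mean of the other epithelial classes. *Hes1*, known to restrain neuroendocrine differentiation, was lower (-4.16, SE 0.310, adjusted p = 3.01e-13), as were *Notch1* (adjusted p = 1.64e-10 from 1 UMI in all), *Jag1* (-2.30, adjusted p = 7.63e-08), *Notch2* (-1.90, adjusted p = 1.27e-08), *Notch3* (-2.17, adjusted p = 0.0162) and *Jag2* (-0.62, adjusted p = 0.0184). Thus 2 genes were higher and 6 lower, where 19.6% of all genes were higher and 19.2% lower. Leaving out library 1 or 2 leaves neuroendocrine cells with 1 library, which is then assumed to vary like the other classes. *Dll1* had adjusted p = 0.0650 without library 1 and 0.229 without library 2. *Jag2* had 0.481 and 0.0518 without them, *Notch3* 0.479 without library 1. The *Jag2* call held in 6 of 12 alternatives and had adjusted p = 0.0625 with RLE size factors, 0.105 in DESeq2 and 0.139 in limma, where *Dll1* had 0.0553. Thinned to 5000 UMIs *Dll4* had 0.0509, *Notch3* 0.111, *Jag2* 0.356 and *Dll1* 0.657.

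Among 39 further pathway genes 12 were higher and 8 lower in neuroendocrine cells. *Dll3*, an inhibitory ligand, averaged 73.4 CPM against at most 0.495 CPM in any other class. *Maml2*, a coactivator (-2.84, adjusted p = 9.32e-11), and *Adam17*, a protease that can cut the receptor (-1.63, adjusted p = 1.11e-07), were the most lowered.

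Outside the epithelium each class was compared with the mean of all others. Endothelial cells were higher in 6 genes and lower in 2, where 22.5% of all genes were higher and 15.6% lower. *Dll4* (adjusted p = 4.32e-18), *Notch4* (5.43, SE 0.302, adjusted p = 6.82e-17), *Notch1* (2.23, SE 0.163, adjusted p = 1.08e-13), *Dll1* (2.19, SE 0.293, adjusted p = 1.40e-07), *Jag2* (1.61, SE 0.160, adjusted p = 2.23e-10) and *Hey1* (1.40, SE 0.241, adjusted p = 1.14e-05) were higher, and *Notch3* (-4.68, SE 0.730, adjusted p = 2.24e-06) and *Notch2* (-1.49, SE 0.171, adjusted p = 5.21e-09) lower. For *Dll4*, 4 classes in the log2 mean held no UMI, which favours a rise. Against the arithmetic mean of the other classes *Dll4* was higher in 3 of 3 libraries, and *Jag2* and *Hey1* in 2 of 3 each. Library 1 held 501 of the 578 endothelial cells, and without it *Hey1* had adjusted p = 0.339 and *Notch3* 0.0521, while *Hes1* passed at 0.0227 (-0.75). Of the other pathway genes 11 of 39 were higher and 6 lower. *Mfng*, another Fringe (mean 56.8 CPM), and *Dtx1* (53.7 CPM) were the most raised, *Dtx4* (-3.81, adjusted p = 1.88e-07) and *Hes6* (-1.31, adjusted p = 2.23e-04) the most lowered.

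Mural cells had the highest *Notch3* and the highest *Jag1*. *Notch3* (5.90, SE 0.212, adjusted p = 8.84e-22), *Jag1* (2.66, SE 0.175, adjusted p = 1.29e-14), *Hes1* (1.30, SE 0.187, adjusted p = 9.12e-07) and *Notch1* (1.31, SE 0.264, adjusted p = 1.96e-04) were higher and *Jag2* (3 UMIs in all, adjusted p = 2.52e-04) lower than the mean of the other classes. These are 4 genes higher and 1 lower, where 13.7% of all genes were higher and 12.3% lower and the median over all genes was -0.32. *Notch1* was 141 and 67.7 CPM in libraries 1 and 3, and in library 3 that is 0.876 times the arithmetic mean of the other classes. Without library 1, which leaves 1 library that is assumed to vary like the other classes, it had adjusted p = 0.845 and *Jag2* 0.251. *Notch4*, with 5 UMIs that all came from library 1, did not pass (adjusted p = 0.0698) but had adjusted p = 0.0470 without the block, 0.0441 with RLE size factors, 0.0403 with gates at 8 UMIs and 0.00855 in DESeq2, and 0.0205 without library 3, where library 1 stood alone for mural cells. The libraries held 68 and 30 mural cells. Among 39 further pathway genes 8 were higher and 5 lower. *Hey2* (mean 178 CPM) and *Heyl* (85.0 CPM), Hey-family targets known from vascular smooth muscle, were the most raised. *Lfng*, without a UMI in mural cells, and *Hes6* (-1.39, adjusted p = 0.0267) were the most lowered.

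Satellite cells, the muscle stem cells, were taken with and without *Myod1* or *Myog* together. *Notch3* (3.81, SE 0.162, adjusted p = 2.64e-20), *Dll1* (2.47, SE 0.203, adjusted p = 1.41e-12), *Hey1* (2.47, SE 0.151, adjusted p = 6.25e-16), *Notch2* (1.56, SE 0.0771, adjusted p = 1.69e-18) and *Hes1* (0.37, SE 0.110, adjusted p = 0.00493) were higher than the mean of the other classes, and *Jag2* (-2.23, SE 0.230, adjusted p = 2.95e-10) and *Jag1* (-0.65, SE 0.124, adjusted p = 3.12e-05) lower. That is 5 higher and 2 lower, where 31.1% of all genes were higher and 22% lower, and all 7 calls held in every alternative. The fit counts the 2 satellite classes of a pool as independent beyond the block, and its SEs and p-values rest on that. Over the 3 libraries *Notch3* was at 1.63 to 5.01 times the arithmetic mean of the other classes, and *Hey1* at 2.82 to 5.25 times. Against that mean, however, *Hes1* was higher in 1 of 3 libraries. *Notch1*, likewise higher in 1 of 3, did not pass but had adjusted p = 0.0187 without library 2, where a class in the log2 mean held no *Notch1* UMI. With gates at 8 UMIs *Notch1* also passed (0.41, adjusted p = 0.0309). Of the other pathway genes 21 of 39 were higher and 10 lower. *Heyl* was the most raised, at means of 207 CPM without and 173 CPM with *Myod1* or *Myog*, ahead of *Dlk1*, a non-canonical ligand (5.85 and 5.46 CPM). *Nrarp* (-3.54, SE 0.512, adjusted p = 3.32e-07) and *Neurl1b* (-3.24, adjusted p = 6.36e-06) were the most lowered.

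Satellite cells with a UMI of *Myod1* or *Myog*, transcription factors of activated and differentiating myoblasts, were then compared with those without. None of the 10 genes passed edgeR's test, and 2 had an unadjusted p under 0.05. These were *Notch3*, at 0.570 to 0.657 times the level of the other satellite cells (-0.80, SE 0.261, adjusted p = 0.642), and *Hey1*, at 0.575 to 0.721 times it (-0.69, SE 0.231, adjusted p = 0.680), both lower in 3 of 3 libraries. Of all genes 0% were higher and 0% lower, with 1055 of 17848 at an unadjusted p under 0.05. DESeq2 called 4 and limma 19 genes, none of them among the 10. Of 39 other pathway genes 0 passed in edgeR and 5 had an unadjusted p under 0.05.

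In fibroblasts *Notch2* made up 85.6% ± 2.24 of receptor UMIs. Its level was higher than the mean of the other classes (0.66, SE 0.0995, adjusted p = 7.77e-07). *Notch3* (-2.87, adjusted p = 4.76e-08), *Jag2* (-2.82, adjusted p = 2.16e-12), *Hes1* (-2.01, adjusted p = 2.98e-12), *Jag1* (-1.58, adjusted p = 3.18e-11), *Notch1* (-1.25, adjusted p = 0.00195) and *Hey1* (-0.97, adjusted p = 0.0131) were lower. This gave 1 higher and 6 lower, where 39.1% of all genes were higher and 14.6% lower. With the marker gates as first set *Notch2* had adjusted p = 0.285. The falls of *Hey1* without library 1 (-0.73) and of *Notch1* without library 2 (-0.89) could not be tested, since a class in the mean then held no UMI. Of the other pathway genes 19 of 39 were higher and 7 lower, led by *Dlk1* (mean 39.2 CPM) and *Heyl* (20.7 CPM), with *Nrarp* (-4.18, adjusted p = 2.56e-05) and *Neurl1b* (-2.55, adjusted p = 1.45e-05) the most lowered.

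Leukocytes likewise had higher *Notch2*, at 219, 136 and 138 CPM (1.15, SE 0.119, adjusted p = 4.68e-10). *Hey1* and *Dll1*, each with 1 UMI in all (adjusted p = 2.95e-07 and 3.09e-04), *Notch3* (-3.34, adjusted p = 3.08e-04), *Jag2* (-2.44, adjusted p = 3.72e-07), *Hes1* (-2.17, adjusted p = 9.43e-10) and *Jag1* (-1.34, adjusted p = 1.99e-05) were lower. This gave 1 higher and 6 lower, where 22.6% of all genes were higher and 21% lower. Without library 1 *Notch3* had adjusted p = 0.0832, and *Dll1* could not be tested, since leukocytes and mural cells then both held no UMI of it. In the pathway list 14 of 39 were higher and 7 lower, with *Mfng* (mean 22.2 CPM) and *Neurl1a* (12.7 CPM) the most raised and *Numbl* (-1.80, adjusted p = 6.55e-04) and *Dtx3* (-1.79, adjusted p = 2.32e-08) the most lowered.

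Cycling squamous basal cells, marked by *Mki67* and other cell cycle genes, were compared with non-cycling ones in libraries 1 and 3, which held 62 and 282 of them. *Hey1* was 1.58 and 5.91 CPM in cycling against 15.6 and 20.4 CPM in non-cycling cells (log2 fold change -1.97, SE 0.297, adjusted p = 1.32e-05), and *Hes1* 133 and 152 against 209.7 and 215 CPM (-0.54, SE 0.0978, adjusted p = 1.41e-04). *Jag1* (-0.50, SE 0.135, adjusted p = 0.00715) and *Jag2* (-0.36, SE 0.103, adjusted p = 0.0102) were also lower, and *Notch1* was 109 and 80.0 against 91.7 and 88.1 CPM (0.06, adjusted p = 0.787). In total 4 of 9 genes tested were lower and 0 higher, where 13% of 14865 genes were lower and 13.7% higher. In the pathway list 2 of 34 were higher, *Neurl1b* (2.88, adjusted p = 9.36e-06) and *Nrarp* (1.48, adjusted p = 4.17e-04), and 8 lower, led by *Dtx3* (-1.26, adjusted p = 1.64e-04) and *Psen2* (-0.82, adjusted p = 0.00901), a γ-secretase subunit. The fit had 4 sums and 1 residual degree of freedom, and cycling cells held more UMIs per cell, at means of 20385 against 16586 in library 1. Thinned to 5000 UMIs, with cycling state set at full depth, none of the 8 genes tested passed (*Hes1* adjusted p = 0.0514, *Hey1* 0.0680). Over all genes 1911 of 12860 passed there. Without the library block *Jag1* had 0.0654 and *Jag2* 0.113.

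The cells had been sorted on an *Lrig1*-driven reporter, so cells with at least 1 *Lrig1* UMI were compared with those without, inside the airway basal, squamous basal, basal and secretory, and secretory classes. *Dll1* was lower in *Lrig1*-positive cells in 10 of 12 pairs of class and library (log2 fold change -0.40, SE 0.0743, adjusted p = 0.00221). *Hey1* was higher in 12 of 12 (0.42, SE 0.118, adjusted p = 0.0340) and *Hes1* in 11 of 12 (0.17, SE 0.0502, adjusted p = 0.0456). These 12 pairs come from only 3 pools. The fit (24 sums, 11 residual degrees of freedom) counts the 4 classes of a pool as independent, and its p-values rest on that. None of the receptors passed, with 0.03 for *Notch1*, 0.04 for *Notch2* and 0.33 for *Notch3* (adjusted p = 0.151). *Notch3* passed without the filter on low counts (0.35, adjusted p = 2.56e-04) and with the first gates (0.56, adjusted p = 0.00620). Hence 2 of 8 genes tested were higher and 1 lower, where 3.8% of 12564 genes were higher and 4.87% lower. Of 31 other pathway genes 0 passed in edgeR and 7 had an unadjusted p under 0.05.

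None of these 3 differences by *Lrig1* held in every alternative. Without libraries 1, 2 and 3 in turn *Hey1* had adjusted p = 0.0678, 0.110 and 0.120 and *Hes1* 0.160, 0.240 and 0.0792, and *Dll1* had 0.0612 without library 3. Without the block of library and class *Dll1* had 0.175, *Hey1* 0.455 and *Hes1* 0.195. *Lrig1*-positive cells held more UMIs per cell in all 12 pairs, for example a mean of 16591 against 11095 in squamous basal cells of library 3. Thinned to 5000 UMIs *Hey1* was at 0.29 (adjusted p = 0.156) and *Hes1* at 0.13 (adjusted p = 0.175), while *Dll1* still passed. Classes and *Lrig1* state had been set on full-depth counts before thinning, so thinning cannot separate *Lrig1* state from depth. The part of depth in these differences was not tested further.

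The genes most like each of the 10 in pattern were sought by Pearson's r of log2(mean CPM + 1) across the 14 classes, among 14533 genes with at least 10 CPM in a class. These are descriptions over 14 points that share libraries, and each set of 3 is given in order with the r of the first. *Notch1* was most like *Ggta1*, *Atp10d*, *Pld2* (r = 0.969), *Notch2* like *Mia2*, *A530013C23Rik*, *Slc7a11* (0.895), *Notch3* like *Gm56626*, *Itga7*, *Mtrr* (0.863) and *Notch4* like *B630019A10Rik*, *Pcdh12*, *Syt15* (0.980). Among the ligands *Jag1* was most like *Lrrfip2*, *9230112J17Rik*, *Cdc42ep3* (0.870), *Jag2* like *Itga3*, *Rfc3*, *Plek2* (0.912), *Dll1* like *Mllt10*, *Khdc4*, *Ylpm1* (0.936) and *Dll4* like *Apol10b*, *Rps6kl1*, *Gm57304* (0.985). *Hes1* was most like *Olfml2a*, *Anxa3*, *Net1* (0.930) and *Hey1* like *Cldn12*, *mt-Nd6*, *5930430L01Rik* (0.879).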

How the data were processed

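Libraries were made by the authors with the 10x Chromium GEM-X 3′ kit, and the submitters' processing notes name Cell Ranger 8.0.1 and mm39. The deposited values are raw UMI counts per gene and barcode. Kept cells had 500 to 8000 genes, 1000 to 40000 UMIs, and a mitochondrial share no higher than 8%. Predicted doublets, by a score from simulated doublets, were removed at 0.4% per 1000 barcodes (1030, 326 and 3495 cells). A gate needed at least 4 UMIs from at least 2 of its genes. As first set, the secretory gate passed nearly all epithelial cells, so the squamous and secretory gates were changed to at least 20 UMIs of 3 genes each and the ciliated gate lost 1 gene. This was done after seeing counts of gate genes and before values of the 10 genes under the new gates were computed. The members and lists were chosen with earlier results of these data known.

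Counts were summed per class and library (40 sums, 24 residual degrees of freedom) and fitted in edgeR 4.0.16 (R 4.3.3) with TMM factors, filterByExpr and library as a block, since all its classes share a pool of larynges. Deviations of classes correlated at a median r of 0.19 within and -0.08 between libraries. The study treats the 3 pools as biological replicates. With library as a block, differences in level between pools are removed. The p-values rest on how class differences vary between libraries, pooled over all classes. In fits of *Lrig1* and cycling state, library by class was the block. There they rest on how the state difference varies between pairs of class and library. Tested on simulated data for the endothelial comparison (16960 genes), the fit recovered 23 of 100 genes changed by a log2 fold of 1 and 88 of 100 changed by 2, with 6 false calls. The simulation gave all classes the same levels apart from the changed genes. It used a fixed dispersion and no deviation shared within a library, so the rates may differ in the real data. The named pathway genes are up to 2 that rose and 2 that fell most past the threshold, of a list of 42, and 1 item of that list is counted but not reported here. Alternatives were DESeq2 1.42.0, limma 3.58.1 on log2 CPM (prior count of 2), RLE size factors, no block, no filter, gates at 8 or 2 UMIs, the first gates, doublets kept, cells thinned to 5000 UMIs, and each library left out. In the settings at 8 or 2 UMIs the squamous and secretory gates, at 20 UMIs in the main fit, were moved in proportion. Thinned cells kept the class, cycling and *Lrig1* labels set at full depth. limma and the first gates were added after seeing the data. Positions are from GENCODE M39. Counting limits for 0 use 3 counts and cover counting error only.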

Additional observations from a re-analysis of the deposited data

How the results depend on the processing

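No call of the 10 genes turned its direction in any alternative. Of 72 calls over 127 pairs of gene and comparison, 68 were shared with RLE size factors, 67 with DESeq2 and 61 with limma. In limma 0 genes passed between airway and squamous basal cells, 3 between suprabasal and basal squamous cells, 0 higher and 3 lower against 3 higher and 4 lower, and 1 by *Lrig1*. Over all genes limma called 460, 4041 and 501 there, of 17848, 17848 and 12564 tested. Without the replicate block 2 passed by cycling state and 0 by *Lrig1*, and it changed no other count of the 10 genes by over 1.5 times. In DESeq2 2 passed by cycling state. Thinned to 5000 UMIs 4 passed in neuroendocrine cells, all lower, where 3647 of 15747 genes passed. After the same thinning 4 passed in fibroblasts, where 7546 of 15747 genes did, a larger share. It left 0 by cycling state, where 1911 of 12860 genes passed, and 1 by *Lrig1*, where 441 of 10589 did. Leaving out each library in turn gave 4 to 6 genes for suprabasal squamous, 5 to 8 for neuroendocrine, 3 to 6 for mural cells and 0 to 1 by *Lrig1*. Without each library in turn, 3156 to 4242 of all genes passed for suprabasal squamous cells, of 18169 to 18773 tested. By *Lrig1* these were 190 to 746 of 12419 to 12951. Of 21 calls lost by thinning, 11 were falls against a mean and 8 of those had a class without a UMI in the mean, where a fall cannot be tested. With RLE size factors 1 gene was higher and 1 lower by *Lrig1*. RLE scaling moved the median over all genes by at most 0.19, in suprabasal squamous cells, and DESeq2 by 0.38 there, 0.47 in mural, 0.30 in neuroendocrine, 0.23 in leukocyte, -0.20 in fibroblast, 0.15 in secretory, 0.11 in ciliated and 0.11 in satellite classes with *Myod1* or *Myog*. Over all genes, calls by *Lrig1* numbered 1089, against 75 without the block, 345 and 190 without libraries 1 and 3, 441 thinned, 501 in limma and 1702 without the filter. By cycling state 3976 became 2000 without the block, 1911 thinned and 2084 in DESeq2. Between airway and squamous basal cells 3271 became 2032 without the block, 1799 without library 1 and 460 in limma, and for secretory cells 5640 became 3189 without library 1, 3639 thinned and 2162 in limma. Without library 1 endothelial calls went from 6798 to 3688, mural from 4644 to 2279, neuroendocrine from 6923 to 4172 and leukocyte from 7791 to 4935. Thinned, the last 3 had 3035, 3647 and 5053, and mural cells had 9673 in limma. Suprabasal squamous calls went from 5698 to 3156 without library 3 and 2843 thinned. The cycling comparison could not be run without library 1 or 3, and with the first gates 7 of 13 comparisons could be run, none of them between epithelial classes. The first gates moved 32 of 100 mean levels by more than 1 SD, gates at 8 UMIs 18 of 150, gates at 2 UMIs 12 and keeping doublets 8, and thinning moved 112 of 150 shares of cells with a UMI. Neuroendocrine, mural and suprabasal squamous values rest on 23 to 139 cells a library.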

Other observations

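The 7629 basal cells with both or neither of *Nkx2-1* and *Tmprss11a* entered no comparison. In libraries 1, 2 and 3 they held 3.69, 5.66 and 7.87 CPM of *Notch3*, 184, 165 and 167 CPM of *Jag2*, 36.7, 28.4 and 29.8 CPM of *Dll1*, 217, 228 and 233 CPM of *Hes1* and 8.53, 6.92 and 17.5 CPM of *Hey1*. Their *Notch3* overlapped with that of airway basal cells and lay below that of squamous basal cells in every library.

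*Nrarp* averaged 238 CPM in mural, 38.0 CPM in endothelial and 37.1 CPM in suprabasal squamous cells, against 1.23 CPM in satellite cells without *Myod1* or *Myog*. *Heyl* averaged 207 CPM in those satellite cells and 0.148 CPM in endothelial cells. *Hey2* averaged 178 CPM in mural cells and at most 8.30 CPM in any other class. The Fringe gene *Lfng* averaged 84.2 CPM in endothelial, 38.7 CPM in neuroendocrine, 33.6 CPM in leukocyte and 30.7 CPM in ciliated classes. These genes were chosen for this paragraph after their values were seen.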
